A study of Homo sapiens with 4 samples.

Results

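Aminoacyl-tRNA synthetases join each amino acid to its transfer RNA, the step at which the genetic code is read. Cytosolic enzymes supply the ribosomes of the cytoplasm, and a separate nuclear-encoded set, named with a final 2, is imported into mitochondria to serve translation of the mitochondrial genome. GARS and KARS encode both forms of the glycine and lysine enzymes, EPRS joins the glutamate and proline activities in 1 protein, and FARSA and FARSB are the subunits of the cytosolic phenylalanine enzyme. The genes described here were a list of 36 synthetase symbols, 20 cytosolic and 16 mitochondrial, chosen by name. All 36 were found among the 28063 gene rows and all 36 passed the count filter that left 14141 genes for testing.

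The cells were KELLY, which derive from a human neuroblastoma and carry extra copies of MYCN, and their poly(A) RNA was sequenced. Both groups carried a lentiviral vector for FLAG-tagged IWS1, a transcription elongation factor. In the WT group the protein was wild type, and in the M3 group it was a mutant in which TIM3, a motif that binds the TFIIS N-terminal domains of partner proteins, was disrupted. Each group had 2 libraries, here called WT 1, WT 2, M3 1 and M3 2. All cells grew in DMEM containing 10% serum, went through puromycin selection (1 ug/ml) and were taken for RNA when 50% confluent. The sources used here do not tell whether endogenous IWS1 was removed, which promoter drove the transgene, or whether a pool or a clone was grown. Separate cultures are not named for the libraries of a group, so the p-values reflect a spread between libraries that could be technical alone.

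The libraries held 12289685 to 20962372 reads assigned to genes, and 23.2% to 27.5% of all counted reads fell in no annotated feature, with both M3 libraries above both WT libraries. IWS1 was at 370 and 393 CPM (counts per 1e6 gene reads, scaled by TMM factors) in WT and at 596 and 598 in M3, and reads of the transgene and of the endogenous gene were not separated. All 8 adrenergic neuroblastoma markers were detected. Their summed level was 6017 to 6301 CPM in WT and 4910 to 4952 in M3. Of the 8, 3 passed the test (PHOX2A, TH and DBH), all lower in M3, beside 6.63% of all genes lower. Summed markers of Schwann, fibroblast, endothelial, haematopoietic and epithelial cells stayed at or below 22.7 CPM in every library, and S100B and CD3E had no reads. Most of those markers had too few reads to be tested. The tested ones were 2 of 4 Schwann, 2 of 5 fibroblast, 0 of 3 endothelial, 1 of 4 haematopoietic and 1 of 4 epithelial markers, and none passed. The part of these differences in the results below was not tested. In bulk RNA, fewer cells of a type and less RNA per cell cannot be told apart.

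Several synthetase genes are known targets of ATF4, the transcription factor of the amino acid response, which binds a composite site called CARE. The letters TGATGNAA were searched on both strands in RefSeq promoter windows of GRCh38.p14, from 250 bases before to 50 after the start. Of the 36 genes, 30 had such a window. Where a gene had several windows, a match in any of them was counted once for the gene. The letters were present for 7 of 10 synthetases with a window that are known to be ATF4-induced (70.0%). They were present for 0 of 6 other cytosolic genes and 1 of 14 mitochondrial genes, against 4.46% of 27305 genes with a window. The 8 matching stretches are shown because 7 of them belong to ATF4-linked cytosolic genes, YARS2 being the mitochondrial exception. The other 3 ATF4-linked genes with a window held no match. Matched letters are in capitals, and each stretch is 30 bases long and read 5′ to 3′ on the gene's strand.
AARS: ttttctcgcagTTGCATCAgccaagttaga
CARS: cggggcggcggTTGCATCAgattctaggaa
GARS: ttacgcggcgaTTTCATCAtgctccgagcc
IARS: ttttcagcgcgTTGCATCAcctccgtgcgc
MARS: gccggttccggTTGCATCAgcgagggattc
NARS: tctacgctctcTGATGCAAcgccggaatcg
TARS: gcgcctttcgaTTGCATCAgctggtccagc
YARS2: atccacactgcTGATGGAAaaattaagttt

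These lie at chr16:70289675-70289704 (AARS, minus strand), chr11:3057407-3057436 (CARS, minus), chr7:30594834-30594863 (GARS, plus), chr9:92293692-92293721 (IARS, minus), chr12:57488053-57488082 (MARS, plus), chr18:57621804-57621833 (NARS, minus), chr5:33440956-33440985 (TARS, plus) and chr12:32756076-32756105 (YARS2, minus). In 5 of the cytosolic genes the match began between 13 bases before and 15 bases after the start, in GARS it began 33 bases before it and in AARS 187 bases before it. The start is the one whose window held the match. TARS and GARS each had another RefSeq window, which did not hold the CARE letters. The site of 5 genes had the letters TTGCATCA, which are TGATGCAA read on the other strand. NARS had that site in the forward orientation, and GARS and YARS2 had a variant.

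Letters of 2 other motifs were searched in the same windows. CACGTG, the E-box bound by MYC-family proteins, was present for 4 of 30 members with a window (13.3%) and for 8.77% of all genes with a window. CCGGAAG, the core letters of ETS-family sites, was present for 16 of 30 members (53.3%) and for 12.2% of all genes with a window. Those members were 9 of 16 cytosolic and 7 of 14 mitochondrial genes. HARS and HARS2, the cytosolic and mitochondrial histidine enzymes, start 84 bases apart in opposite directions, and the bases between the starts hold an ETS match at each end. They are shown on the HARS2 strand (chr5:140691371-140691454), with the ETS letters in capitals, because both genes share them.
HARS-HARS2: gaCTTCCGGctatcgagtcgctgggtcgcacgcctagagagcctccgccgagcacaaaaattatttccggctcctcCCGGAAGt

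A match of letters is a description of the sequence and not a measured binding site.

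Few synthetase genes differed between M3 and WT beyond the spread between libraries. By edgeR's quasi-likelihood test with Benjamini-Hochberg adjustment over all genes (threshold 0.05), 3 of 36 passed: the cytosolic FARSA and QARS were lower in M3 and the mitochondrial VARS2 was higher. That is 8.33% of the list, beside 15.8% of all genes tested. In the same test 6.63% of all genes were lower and 9.16% were higher. The median log2 fold change (M3 minus WT) was -0.20 over the 20 cytosolic genes and -0.09 over the 16 mitochondrial genes, beside -0.0065 over all genes tested. The size of the difference was under 0.5 on the log2 scale for 33 of 36 members (91.7%) and for 71.3% of all genes. The M3 and WT libraries did not overlap for 26 of 36 members (72.2%), 17 of them with M3 below WT and 9 above, and for 68.2% of all genes, 34.1% with M3 below and 34.0% above.

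**Figure D1:**
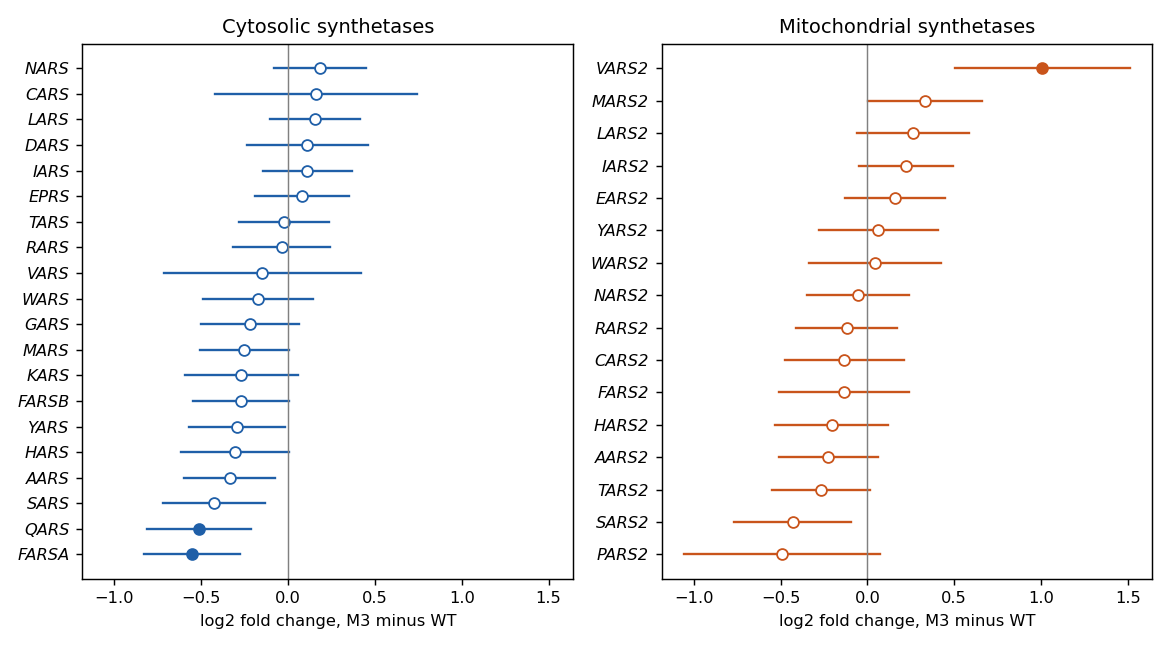
Log2 fold change (M3 minus WT) of the 20 cytosolic (left) and 16 mitochondrial (right) synthetase genes, with 2 libraries a group. Bars are 95% intervals from the fit, and filled points are the genes past the adjusted p threshold of 0.05, which are FARSA, QARS and VARS2.

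FARSA (chromosome 19, 12922479 to 12934037, minus strand, GRCh38) encodes the catalytic alpha subunit of cytosolic phenylalanyl-tRNA synthetase. It was at 216 and 189 CPM with WT against 139 and 136 with M3. The M3 libraries lay together below both WT libraries, and the log2 fold change was -0.56 ± 0.12 (SE, n = 2 a group; edgeR adjusted p = 0.0287). FARSB, the beta subunit of the same enzyme, was at 131 and 120 CPM with WT against 107 and 101 with M3, also without overlap. Its log2 fold change was -0.27 ± 0.12 and did not pass (edgeR adjusted p = 0.143). The call of FARSA ended without M3 1 (edgeR adjusted p = 0.250), without M3 2 (0.189) and with total-count scaling (0.0518). After the dependence of each library on transcript length and GC content was taken out, FARSA was at -0.14 (edgeR adjusted p = 0.316) and FARSB, at -0.44, passed (0.0272).

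QARS (chromosome 3, 49095932 to 49105135, minus strand) encodes the glutamine enzyme, which works in the cytosol and is a member of the multi-synthetase complex. It was at 386 and 322 CPM with WT against 242 and 254 with M3, again with every M3 value below every WT value. The log2 fold change was -0.51 ± 0.13 (edgeR adjusted p = 0.0377). The call ended without M3 1 (edgeR adjusted p = 0.383), without M3 2 (0.207), with total-count scaling (0.0617) and once the trends with length and GC were taken out (-0.31, 0.0621). Mitochondria have no glutamine enzyme of their own and form Gln-tRNA through the GatCAB amidotransferase. Of its 3 subunit genes and MTFMT, which formylates the initiator Met-tRNA of mitochondria, none passed by edgeR, DESeq2 or limma-voom, and none had an unadjusted edgeR p under 0.05. GATC (0.04 ± 0.12) and QRSL1 (0.01 ± 0.14) had the highest CPM of these (47.6% of the exonic bases of GATC lie in another gene), with log2 fold changes that turned negative with the length and GC trends removed.

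VARS2 (chromosome 6, 30908242 to 30926459, plus strand), the mitochondrial valine enzyme, was at 5.20 and 4.08 CPM with WT against 9.34 and 9.14 with M3, resting on 65 and 86 reads, then 120 and 129. Both M3 libraries were above both WT libraries, and the log2 fold change was 1.01 ± 0.22, or 2.01-fold (edgeR adjusted p = 0.0289). With the length and GC trends removed it was 1.17 and past the threshold, while leaving out M3 1 (edgeR adjusted p = 0.115) or M3 2 (0.0522) ended the call. Its cytosolic counterpart VARS, on the same arm of chromosome 6, was at 7.20 and 5.74 CPM with WT against 4.90 and 6.66 with M3, with overlapping groups (log2 fold change -0.15 ± 0.25).

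The counts of VARS2 and VARS were low and stand in a stretch where few genes were counted. Of its exonic bases, VARS2 shares 22.0% with GTF2H4 on the same strand, whose reads (64 and 19 in WT, 9 and 94 in M3) did not follow those of VARS2. Between VARS2 and VARS, 13 of 64 gene rows (20.3%) passed the count filter and 38 had no read in any library, against 50.4% of all rows passing. Among them DDX39B, a helicase of mRNA export, had 0 reads in all 4 libraries, while BAG6 was at 9.84 to 25.1 CPM. TUBB, just outside this stretch, was at 99.4 to 163 CPM. These genes too were chosen after their values were seen. RPS18, a ribosomal protein gene further along the arm and chosen after its values were seen, was at 15.9 CPM, where the other 74 RPS and RPL genes tested had a median of 935 and 4 were lower than RPS18. This arm carries the MHC region, for which GRCh38 also holds alternate sequences. Whether these were in the authors' alignment index is not given in the sources used here, and their part in the counts was not tested. The VARS2 and VARS values are therefore those of the counted reads only.

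The most abundant members that did not pass were close to their WT level or below it. SARS, the cytosolic serine enzyme, was the most abundant at 473 and 412 CPM with WT against 318 and 340 with M3, without overlap (log2 fold change -0.43 ± 0.13, edgeR adjusted p = 0.0554). AARS, the alanine enzyme, was at 330 and 328 CPM with WT against 256 and 265 with M3 (-0.34 ± 0.11, adjusted p = 0.0738). GARS was at 367 and 322 CPM with WT against 298 and 293 with M3 (-0.22 ± 0.12). EPRS, in contrast, was at 347 and 369 CPM with WT against 375 and 382 with M3 (0.08 ± 0.12), with a 95% interval from -0.19 to 0.35 that leaves room for a change of either sign. WT 1 was the higher WT library for SARS and GARS, and in AARS both WT libraries agreed closely.

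Among the mitochondrial genes the most abundant was IARS2, the isoleucine enzyme, at 129 and 141 CPM with WT against 162 and 154 with M3 (0.22 ± 0.12, edgeR adjusted p = 0.206). TARS2 (threonine) was at 94.3 and 86.4 CPM with WT against 74.3 and 75.5 with M3 (-0.27 ± 0.12, adjusted p = 0.155). AARS2 (alanine) was at 78.6 and 76.1 with WT against 69.0 and 63.2 with M3 (-0.23 ± 0.13, adjusted p = 0.227). EARS2 (glutamate) was at 48.4 and 51.2 with WT against 55.3 and 55.8 with M3 (0.16 ± 0.13, adjusted p = 0.395). None of these 4 overlapped between groups, as was so for 68.2% of all genes tested. IARS2 and EARS2 lay higher and TARS2 and AARS2 lower in M3, and none of the 4 passed the test.

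The remaining members had log2 fold changes from -0.31 (HARS) to 0.18 (NARS) in the cytosolic set and from -0.49 (PARS2) to 0.33 (MARS2) in the mitochondrial set. PARS2, the mitochondrial proline enzyme, had 71 reads in M3 1 and 128 to 212 in the other libraries, so its value rested mainly on M3 1. MARS2, the mitochondrial methionine enzyme, was higher in both M3 libraries without passing (edgeR adjusted p = 0.136). LARS2 was at 39.6 and 46.9 with WT against 50.1 and 53.8 with M3 (adjusted p = 0.212). An unadjusted p under 0.05 was found for 8 of 36 members, 6 lower and 2 higher, and for 35.9% of all genes. Over 10% of the exonic bases of MARS, WARS, HARS2, SARS2 and VARS2 lie in another annotated gene, so their counts are uncertain.

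**Figure D2:**
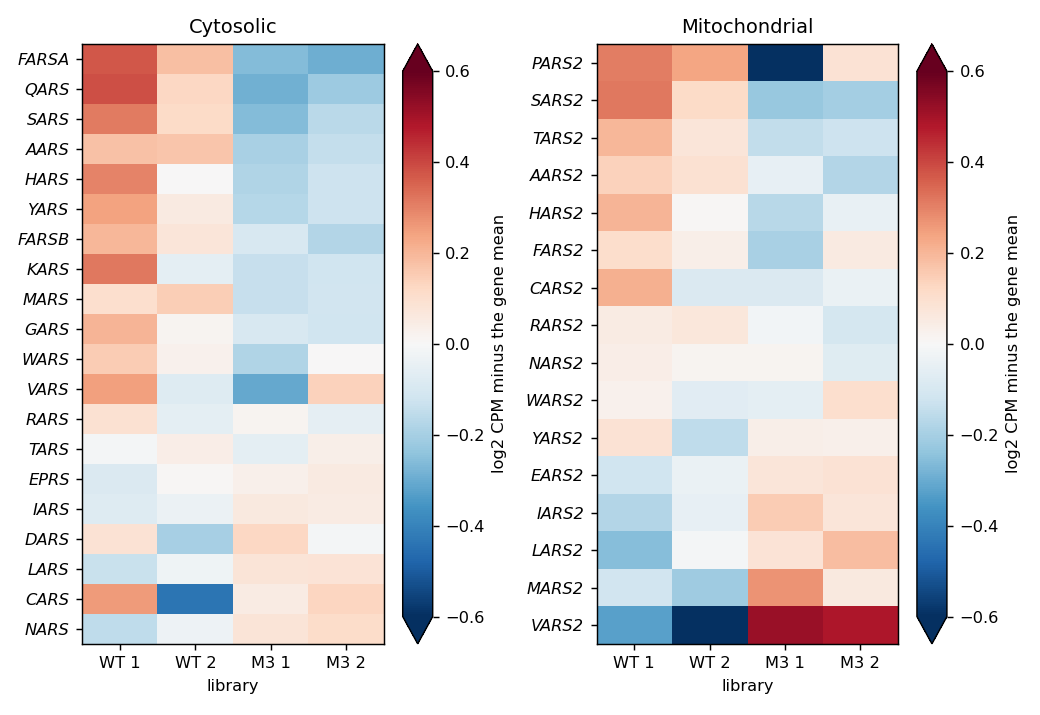
Log2 CPM of each member minus its mean over the 4 libraries, for cytosolic (left) and mitochondrial (right) genes ordered by fold change. Colours span -0.6 to 0.6 and arrows on the scale mark values beyond it. WT 1 departs further than WT 2 from the M3 libraries for many cytosolic genes, KARS (299 and 231 CPM in WT) among them.

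The single libraries weighed on these values. The median deviation of the cytosolic genes from their own mean was 0.19 in WT 1, 0.01 in WT 2, -0.12 in M3 1 and -0.08 in M3 2 on the log2 scale. For the mitochondrial genes it was 0.07, -0.0037, -0.03 and 0.04 in the same order, with no split by group. The median fold change of the cytosolic set was -0.098 without WT 1 and -0.28 without WT 2. The summed cytosolic level was 4093 and 3815 CPM with WT against 3423 and 3491 with M3. The summed mitochondrial level was 696 and 682 CPM with WT against 692 and 683 with M3. The ratio of these sums was 5.88 and 5.60 with WT against 4.95 and 5.11 with M3, so that cytosolic transcripts took a smaller part in both M3 libraries. The number of members past the threshold was 7 without WT 1, 16 without WT 2 and 0 without either M3 library, beside 24.1%, 46.2%, 2.47% and 7.33% of all genes in the same fits. Fits without a WT library take their spread from the M3 pair alone, and those without an M3 library from the WT pair alone.

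Levels between genes were compared per kb of transcript, as CPM per kb averaged over the 4 libraries. The median was 51.0 CPM per kb for cytosolic and 12.5 for mitochondrial genes, and 16 of the 18 highest genes were cytosolic. SARS led with 208 CPM per kb, and its lowest library (172) exceeded the highest library of every other member. GARS (121), KARS (121), QARS (107), FARSA (93.9), AARS (84.8) and MARS (82.8) followed. IARS2 (41.2) and TARS2 (30.3) were the highest mitochondrial genes. WARS2 (4.78), PARS2 (3.75), CARS (3.01), VARS2 (1.70) and VARS (1.42) stood at the low end. Of the 35 neighbours in this order, 28 had library ranges that overlapped, so the order of adjacent genes is firm only at 7 gaps. One of these gaps lies between FARS2 (9.56) and WARS2, another between EPRS (73.4) and NARS (59.1). Genes further apart could be separate all the same, as were GARS (111 to 139 over the libraries) and LARS (40.9 to 47.5).

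For the same amino acid, the cytosolic gene had the higher level per kb in 14 of 17 pairs, with a median ratio of 3.56. EPRS was paired with both EARS2 and PARS2, and FARS2 with both FARSA and FARSB, so the pairs are not independent. The exceptions were CARS and CARS2 (ratio 0.171), VARS and VARS2 (0.834) and IARS and IARS2 (0.922), of which the isoleucine and valine pairs had overlapping library ranges. Near CARS on chromosome 11, SLC22A18 had 0 reads, as had 7773 of all 28063 gene rows. NAP1L4, also nearby, was at 10.0 to 26.0 CPM, where the median of all tested genes was 25.4. Both were named after their values were seen, and the share of genes counted around CARS was not computed. The fold changes of cytosolic and mitochondrial partners had the same sign in 10 of 17 pairs. SARS and SARS2 were the closest (-0.43 for each), although 57.0% of the exonic bases of SARS2 lie in other genes. EPRS and EARS2 (0.08 and 0.16) and RARS and RARS2 (-0.04 and -0.12) came next. HARS (-0.31) and HARS2 (-0.21), which share the bases between their starts shown above, were further apart than these. LARS and LARS2 (0.16 and 0.26) were about as far apart as HARS and HARS2. VARS and VARS2 (-0.15 and 1.01) and MARS and MARS2 (-0.25 and 0.33) were the furthest apart. The difference between partners was not tested.

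**Figure D3:**
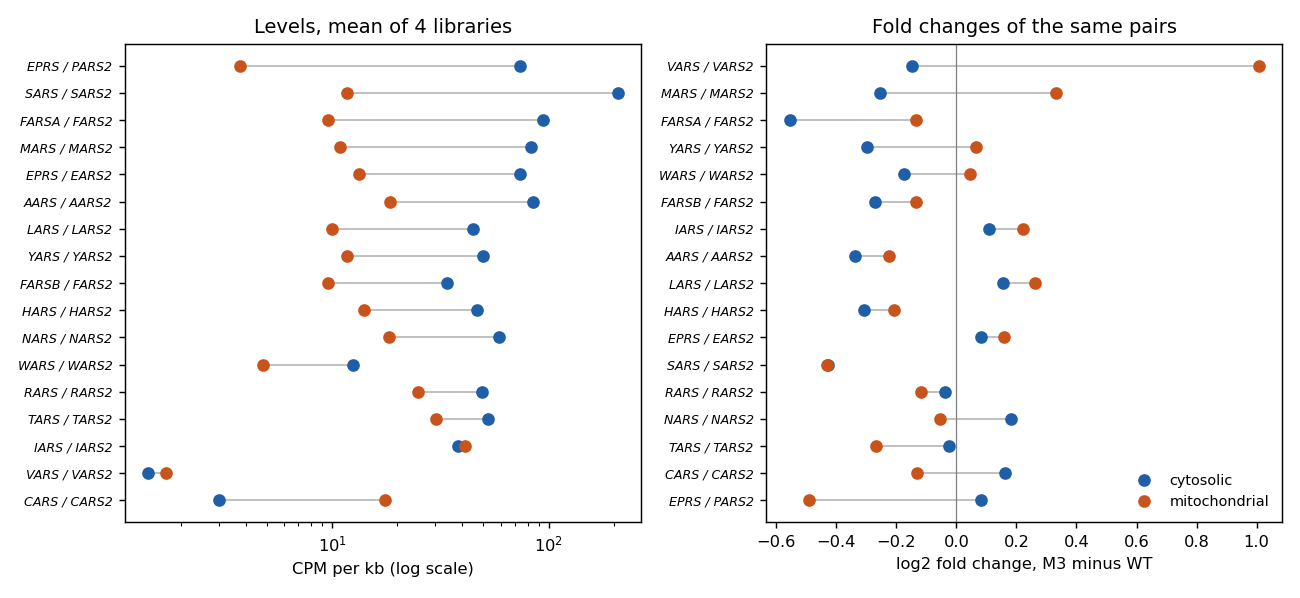
Cytosolic and mitochondrial genes for the same amino acid. Blue is cytosolic and orange mitochondrial. Left, level in CPM per kb on a log axis, mean of 4 libraries, and right, log2 fold change, M3 minus WT. In 14 of 17 pairs the cytosolic level is the higher, and VARS2 lies furthest from its partner in fold change. EPRS and FARS2 recur among the pairs.

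Synthetases fall into 2 structural classes by the fold of their catalytic domain. EPRS (0.08) joins a class I activity (glutamate) to a class II activity (proline) and was counted in class I only. Of the 19 class I genes 11 had a positive log2 fold change (median 0.06), and of the 17 class II genes 2 had (median -0.27). In the mitochondrial set 7 of 9 class I genes were positive and 7 of 7 class II genes negative. Few of these passed the test, 2 of 19 (10.5%) in class I and 1 of 17 (5.88%) in class II, against 15.8% of all genes. Over all members, class II transcripts were shorter (median 2510 nt against 3092 nt) and richer in GC (52.5% against 50.8%). The GC order held in the mitochondrial set (54.6% against 49.9%) and was reversed in the cytosolic set (47.9% against 52.6%). Once those trends were taken out, class I had a median of -0.04 and class II of -0.09, with 9 of 19 and 3 of 17 positive. In the mitochondrial set 7 of 9 class I genes were then positive (median 0.20) and 6 of 7 class II genes negative (median -0.07). With total-count scaling 12 class I genes were positive and 13 class II genes negative. The difference between classes was not tested.

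Length and GC content moved with the fold change within the family, as in the rest of the transcriptome. Across the 36 genes the Spearman correlation of log2 fold change was 0.45 with transcript length and -0.46 with GC content. It was 0.52 and -0.54 across 13702 tested genes with a transcript. Genes share libraries and are not independent replicates, so these values are descriptions. The 12 shortest members (1692 to 2440 nt) had a median of -0.20, and all tested genes in that range had -0.21. The 12 of middle length (2510 to 3238 nt) had -0.19, beside -0.10 for all genes. The 12 longest (3369 to 5014 nt) had 0.10, as did all genes of that range. Of the 12 longest members 5 were negative, and of the 12 shortest 2 were positive. VARS2 had a GC content of 60.2%, where the median of all genes was negative, and the largest positive value of the family.

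**Figure D4:**
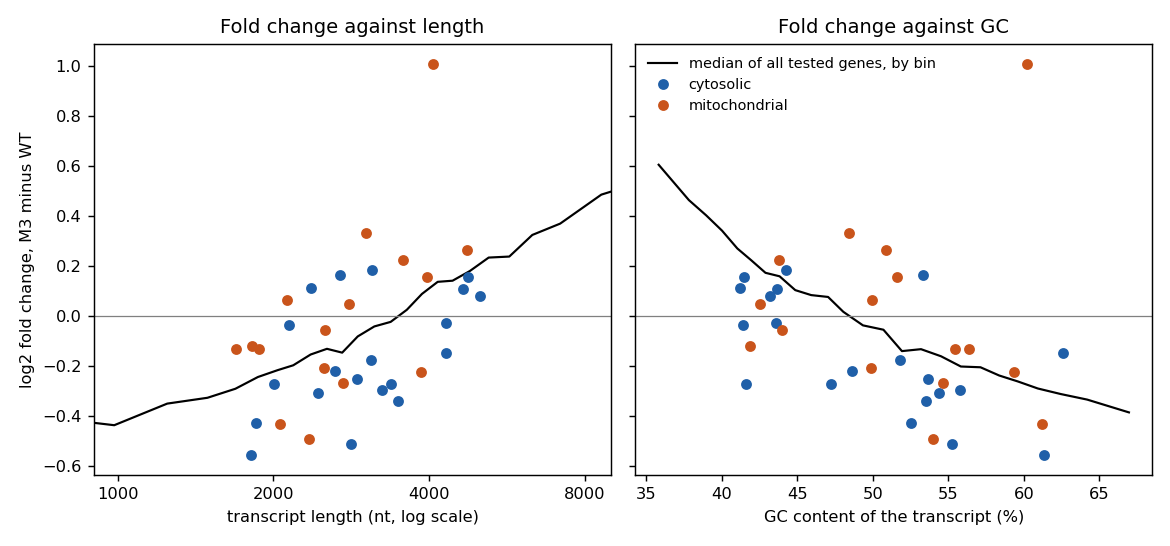
Log2 fold change of the 36 members against transcript length (left, log axis) and GC content (right). The black line is the median of all tested genes in bins with equal numbers of genes and runs on past the length axis. Members scatter on both sides of the line, and VARS2, at 1.01, lies furthest above it.

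After removal of each library's length and GC trends, 2 of 36 members passed, FARSB lower and VARS2 higher, beside 4.82% of all genes, 2.35% lower and 2.47% higher. The median was then -0.13 for cytosolic and 0.03 for mitochondrial genes. LARS (-0.13), IARS (-0.11) and EPRS (-0.18) changed sign, as did VARS, CARS2, FARS2 and WARS2, none of them past the threshold in either fit. Of the cytosolic genes 16 of 20 were then negative, against 14 before. With total-count scaling, which placed the median of all genes 0.12 higher, RARS, TARS and NARS2 turned positive and only VARS2 passed.

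The multi-synthetase complex holds 8 of the cytosolic genes together with the scaffold proteins AIMP1, AIMP2 and EEF1E1. Its 8 enzymes had a median of 0.02 with 4 of each sign, and QARS was the only one past the threshold, 12.5% beside 15.8% of all genes. IARS, LARS and EPRS were higher in both M3 libraries without passing. MARS, at 257 and 266 CPM with WT against 218 and 221 with M3, and KARS lay lower without passing. The 12 cytosolic genes outside the complex had a median of -0.25, with 10 negative. With the trends removed the complex was at -0.12, with 7 of 8 negative, and the genes outside it at -0.13, with 9 of 12 negative. Of the scaffolds, AIMP1 was at 51.9 and 43.6 CPM with WT against 48.6 and 46.3 with M3 (-0.0054 ± 0.14), with a sign that differed between settings and a value of -0.40 with the trends removed (edgeR adjusted p = 0.0642). AIMP2 was at 43.3 and 35.1 with WT against 30.4 and 33.5 with M3 (-0.29 ± 0.15), and EEF1E1 at 0.46 ± 0.23. None of the 3 passed by edgeR, DESeq2 or limma-voom, and none had an unadjusted edgeR p under 0.05. Of the exonic bases of AIMP1 11.6%, of AIMP2 28.9% and of EEF1E1 18.7% lie in another gene.

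ATF4 itself fell in M3, from 392 and 374 CPM in WT to 197 and 241, a log2 fold change of -0.81 ± 0.13 (edgeR adjusted p = 0.0204). In a list of ATF4 and 15 genes it is known to induce outside the synthetases, 6 of 16 fell and none rose, beside 6.63% of all genes lower. The largest of these changes beside ATF4 were in CHAC1, a glutathione-degrading enzyme (-1.36 ± 0.34), the transcription factor CEBPB (-0.83 ± 0.16) and the mTORC1 inhibitor DDIT4 (-0.76 ± 0.16). The list median was -0.48, where all genes had -0.0065. Over 10% of the exonic bases of CEBPB (11.8%) and DDIT4 (41.2%) lie in other genes. The transcripts of this list were short and rich in GC (medians 2272 nt and 57.4%), and with those trends removed its median was -0.31, with ATF4 (-0.49, edgeR adjusted p = 0.0180) and VLDLR (-0.78, 0.0303), named after its values were seen, past the threshold. ATF4 lost the call without M3 1 (-0.67, 0.188), where none of the list passed. With total-count scaling 2 of the list passed, beside 7.92% of all genes in that fit.

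The 13 synthetase genes known to be ATF4-induced had a median of -0.15, and none passed by edgeR's quasi-likelihood test or by limma-voom. At an unadjusted p under 0.05 there were 3, all lower, beside 35.9% of all genes. DESeq2 called 1, SARS, beside 18.7% of all genes. The 7 ATF4-induced genes among those with CARE letters printed above, YARS2 (0.06) left aside, had a median of -0.03 and ran from -0.34 (AARS) to 0.18 (NARS), 4 negative and 3 positive. The 7 cytosolic genes outside the ATF4-induced set, FARSA and QARS among them, had a median of -0.27, with 6 negative. The FARSA and QARS windows held no CARE, E-box or ETS letters. After the trends were taken out, the ATF4-induced set was at -0.13 and the others at -0.14. Without WT 1 there were 3 of the ATF4-induced synthetases past the threshold and without WT 2 there were 6 of 13, beside 24.1% and 46.2% of all genes in those fits. The difference between these lists was not tested.

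**Figure D5:**
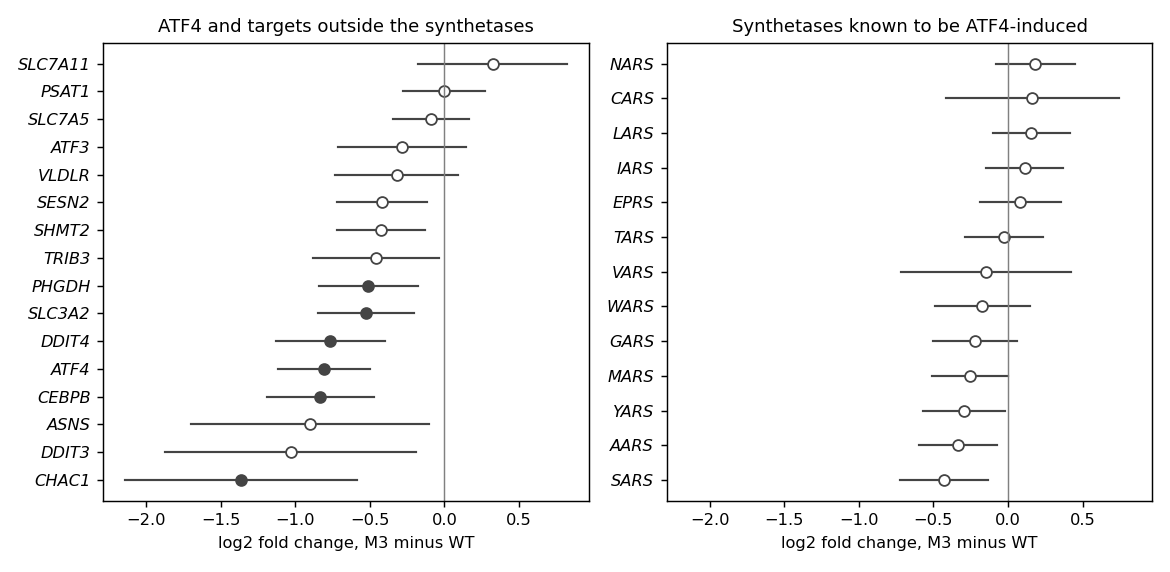
Log2 fold change (M3 minus WT) with 95% intervals for ATF4 and 15 of its targets outside the synthetases (left) and for the 13 synthetases known to be ATF4-induced (right). Filled points are past the adjusted p threshold of 0.05, 6 of 16 on the left and 0 of 13 on the right.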

How the data were processed

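The authors deposited raw whole-number counts for 28063 gene symbols in each library. The submitters' processing notes name hg38, HISAT2 2.1.0, HTSeq and DESeq2. The annotation and the strand setting are stated in none of the sources used here. Of all counted reads, 3.16% to 3.50% were set aside as ambiguous and entered no gene count. Whether reads shared by a gene and one overlapping it, antisense included, were among these or were assigned to either gene is not known. The 5 summary values of each table entered neither library sizes nor tests.

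M3 was compared with WT in edgeR 4.0.16 (R 4.3.3). Genes passed filterByExpr, TMM factors ran from 0.916 to 1.05, and the test was the robust quasi-likelihood F test without covariates, adjusted by Benjamini-Hochberg over 14141 genes. The standard error is the log2 fold change over the root of F, and intervals use the test's degrees of freedom. CPM are TMM-normalised. With 2 libraries a group the smallest exact permutation p is 0.333, so no such test is given. The fit was tested on simulated counts that held no length or GC trend, so that check does not cover the trends described above.

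Transcript length, GC content and exon overlap came from GENCODE 29, and promoter windows from RefSeq (GRCh38.p14). Of the tested genes, 96.9% had a transcript. Alternatives were DESeq2 1.42.0, limma-voom (limma 3.58.1), other scalings and count filters, length and GC trends as offsets (splines with 5 degrees of freedom), the replicate number as a block, and each library left out. The members, lists and tests were chosen with earlier results of these data known. Named by rule were members past the threshold, the 4 most abundant others per compartment and up to 4 changed or 2 unchanged genes per related list. The count for the list of trans editing and tRNA recycling is not reported here.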

Additional observations from a re-analysis of the deposited data

How the results depend on the processing

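VARS2 kept its direction and its call under all alternatives except those without an M3 library, and FARSA and QARS kept their direction under every alternative. The count of cytosolic genes past the threshold, 2 in the reported fit, was 0 with total-count scaling, 1 with the replicate block (FARSA), 1 with the length and GC trends removed, 1 with both together (FARSB in each), and 0 to 11 with a library left out. Under the block the calls of QARS (edgeR adjusted p = 0.0584), GFM1 (0.0747) and EEFSEC (0.0583) ended. The mitochondrial count of 1 ran from 0 to 5 with a library left out. The count of all genes, 2232, was 1120 with total-count scaling (856 higher and 264 lower, beside 1295 and 937), 3945 without a count filter, 661 with the trends removed, 719 with the trends removed and the replicate block, and 359 to 6735 with a library left out. The cytosolic median, -0.20, was -0.078 with total-count scaling, -0.098 without WT 1 and -0.28 without WT 2. The mitochondrial median turned to 0.030 with total-count scaling, 0.032 with the trends removed and 0.032 with the trends removed and the block, and ran from -0.094 to -0.017 with a library left out. The cause of these shifts was not tested. The replicate numbers are only shared labels: deviations of same-numbered libraries had a correlation of -0.19, and the crossed pairing as a block, chosen after seeing the data, gave 5314 genes, 7 cytosolic and 4 mitochondrial members.

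Some values changed sign: EPRS to -0.18, AIMP2 from -0.29 to 0.048, GATC to -0.12 and QRSL1 to -0.25 with the trends removed (-0.18, 0.048, -0.12 and -0.26 with the block added), QRSL1 to -0.04 without WT 2 and -0.080 without M3 1 (up to 0.098 without M3 2), and AIMP1 to 0.12 with total-count scaling, 0.0024 with a mean count of at least 50, 0.0047 with limma-voom, 0.12 without WT 1 and 0.026 without M3 2 (down to -0.13 without WT 2), while it was at -0.40 with the trends removed. With 65 to 129 reads in a library, VARS2 is the least precise of the 3 calls.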

Other observations

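Of 17 tested genes of tRNA end maturation and export, 2 fell in M3 (11.8%) and none rose, beside 6.63% of all genes lower and 15.8% called in either direction. They were RPP25L, a relative of an RNase P subunit, at 11.6 and 11.2 CPM with WT against 6.38 and 6.03 with M3 (log2 fold change -0.87 ± 0.19, edgeR adjusted p = 0.0285), and HSD17B10, a subunit of mitochondrial RNase P, at 221 and 171 CPM with WT against 124 and 133 with M3 (-0.61 ± 0.15, 0.0326). Both calls ended without either M3 library, with total-count scaling and once length and GC trends were taken out, where RPP25L was at -0.39 and HSD17B10 at -0.12. Among genes of trans editing and tRNA recycling, PTRHD1 fell (-1.01 ± 0.29, edgeR adjusted p = 0.0498). With 12.9% of its exonic bases in another gene, PTRHD1 was at 9.52 and 6.26 CPM with WT against 3.19 and 4.54 with M3. Next to the threshold, it lost the call in most alternatives, among them limma-voom (edgeR's 0.0498 became 0.0666), every other scaling, the trends removed (0.109) and the fits without WT 1 (0.0762) or M3 1 (0.284).

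Of 9 mitochondrial translation factors, GFM1, the elongation factor that drives translocation, rose, at 70.6 and 79.9 CPM with WT against 105 and 105 with M3 (0.48 ± 0.13, edgeR adjusted p = 0.0405). That is 11.1% of the list, beside 9.16% of all genes higher. DESeq2 called 2 of the 9, beside 18.7% of all genes in either direction, and edgeR's value for GFM1 also depended on the setting. GFM1 was at 0.28 with the trends removed and did not pass there (edgeR adjusted p = 0.0940), nor without either M3 library. In the selenocysteine route, SARS charges the tRNA first. EEFSEC, the selenocysteine elongation factor, was the gene of 4 that passed, beside 6.63% of all genes lower. With 15.3% of its exonic bases in another gene, EEFSEC was at 38.8 and 35.0 CPM with WT against 26.0 and 24.8 with M3 (-0.54 ± 0.14, edgeR adjusted p = 0.0392). It was at -0.19 with the trends removed (0.353), and its call also ended without either M3 library and with total-count scaling (0.0890).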
